A study of Mus musculus with 16 samples.

Results

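The genes of 2 cytokine axes were followed: Il18 and Il18bp, which encode interleukin 18 and its secreted binding protein, and Il15 and Il15ra, which encode interleukin 15 and the alpha chain of its receptor. These 4 genes of the 39171 features in the table were matched by symbol, and all 4 passed the filter on low values. They were chosen by measured values of these libraries, because Il18 and Il15ra had risen in reporter-positive libraries. Positive against negative values of the 4 genes are therefore a description without a test, and the tests below compare the regions, which the choice did not use.

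Astrocytes were sorted by flow cytometry from thalamus and spinal cord in 4 C57BL/6 mice at postnatal day 15. All mice carried an mCherry reporter of IL-33 on 1 allele and a GFP reporter of the astrocyte gene Aldh1l1, IL-33-mCherry (het)/Aldh1l1-GFP+ in the labels, and no group without the reporters was used here. Each mouse gave a reporter-negative and a reporter-positive library from each region, which made 4 groups of 4 libraries, 16 in all. Values are FPKM, fragments scaled to transcript length and to library size. The age and the reporter are the limits of the model: 1 postnatal age was sampled, and the gate follows an mCherry protein rather than the transcript.

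Interleukin 18 is a cytokine of the interleukin 1 family that is made as an inactive precursor and cut by caspase-1, the protease of inflammasomes. Its secreted binding protein keeps it from its receptor, and the receptor signals through MyD88, IRAK kinases and NF-kB. Interleukin 15 is held on the surface of the producing cell by the alpha chain of its receptor and presented to neighbouring cells that carry the beta and common gamma chains, which signal through JAK1, JAK3 and STAT5. In the brain, glial cells are known sources of both cytokines, and interferons are known inducers of Il15, Il15ra and Il18bp.

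The libraries summed to 984986 to 2344483 FPKM, and 13260 to 14731 features reached 1 FPKM. The negative libraries of mouse 1 had the highest sums, 2344483 in thalamus and 2233820 in spinal cord, against at most 1635367 in the other negative libraries. Transcripts of the mitochondrial chromosome took 56.7% to 73.9% of the sum in negative and 51.3% to 56.7% in positive thalamus libraries, and 46.7% to 71.8% and 43.7% to 49.2% in those of the spinal cord. Depth is unknown for FPKM values, so no counting interval is given. Il33 itself ran from 13.3 to 26.9 FPKM in negative and from 23.8 to 31.98 FPKM in positive thalamus libraries. The spinal cord libraries held 19.98 to 36.5 FPKM and 24.6 to 31.2 FPKM. Its differences between the gates, 0.58 ± 0.22 and 0.21 ± 0.22 (SE) on the log2(FPKM + 1) scale, did not pass limma's test (adjusted p = 0.0736 and 0.559).

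The 12 astrocyte markers were all present, with a summed level of 6457 to 8604 FPKM in negative and 6627 to 8084 FPKM in positive thalamus libraries, and one of 9404 to 11264 FPKM and 14154 to 15733 FPKM in those of the spinal cord. The 12 oligodendrocyte markers summed to 478 to 992 FPKM and 79.8 to 116 FPKM in the thalamus, and those of the spinal cord reached 3557 to 3756 FPKM and 160 to 172 FPKM. The 12 ependymal markers summed to 364 to 651 FPKM and 10.5 to 11.1 FPKM, and to 130 to 175 FPKM and 4.72 to 8.23 FPKM, in the same order. The 14 microglia markers stayed at 26.4 to 57.0 FPKM, 26.1 to 39.2 FPKM, 29.2 to 40.9 FPKM and 22.2 to 31.6 FPKM. Of the 6 border macrophage markers Pf4 was listed at 0 in all libraries of 3 groups, and the list summed to at most 3.51 FPKM. Mrc1 was above 0 in every library, at 0.0115 to 0.805 FPKM, and Cd163 was at 0.261 to 3.16 FPKM. The 12 lymphocyte markers summed to 2.36 to 9.58 FPKM in negative and 4.29 to 5.74 FPKM in positive thalamus libraries, and to 1.55 to 3.46 FPKM and 2.50 to 3.55 FPKM in those of the spinal cord. Cd3d was above 0 in every library, at 1.38 to 5.18 FPKM, whereas Cd3g, Klrb1c and Ncr1 were listed at 0 in all 16. Oligodendrocyte precursor markers summed to 102 to 186 FPKM and 70.6 to 119 FPKM in negative and positive thalamus, and to 382 to 529 FPKM and 64.9 to 92.8 FPKM in negative and positive spinal cord libraries. In the same order endothelial markers summed to 11.1 to 17.997 FPKM, 5.76 to 6.66 FPKM, 26.0 to 43.4 FPKM and 4.57 to 6.16 FPKM, and neuron markers to 38.9 to 103 FPKM, 14.4 to 21.9 FPKM, 39.8 to 62.0 FPKM and 20.03 to 29.8 FPKM. The summed ependymal, oligodendrocyte, endothelial and neuron markers of every negative library thus lay above those of every positive library of its region, as did the precursor markers in the spinal cord. The part of these other cells in the values below was not tested.

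The promoters of the genes the results turn on are shown because Il18 and Il15ra were chosen as moving together between the gates while Il18 and Il18bp differed between the regions in opposite directions. Each sequence runs from 250 bases before to 50 bases after a transcription start, from RefSeq (GRCm38.p6), and 3 of the 4 genes matched the table, Il15ra with 2 starts. Capitals mark the matches of the motifs searched.

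Il18, chr9:50554450-50554749, plus strand: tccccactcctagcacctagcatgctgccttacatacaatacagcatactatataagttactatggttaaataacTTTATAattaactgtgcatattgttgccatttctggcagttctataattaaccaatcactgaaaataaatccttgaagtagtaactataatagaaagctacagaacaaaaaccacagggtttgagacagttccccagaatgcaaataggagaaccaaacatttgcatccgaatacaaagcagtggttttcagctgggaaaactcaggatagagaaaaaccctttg

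Il18bp, chr7:102018183-102018482, minus strand: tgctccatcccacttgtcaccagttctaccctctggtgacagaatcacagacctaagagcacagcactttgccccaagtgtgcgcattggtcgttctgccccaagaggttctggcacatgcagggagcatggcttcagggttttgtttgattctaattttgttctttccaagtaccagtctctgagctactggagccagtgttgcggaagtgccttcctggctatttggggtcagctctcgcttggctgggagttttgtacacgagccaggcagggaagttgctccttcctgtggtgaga

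Il15ra, first start, chr2:11705043-11705342, plus strand: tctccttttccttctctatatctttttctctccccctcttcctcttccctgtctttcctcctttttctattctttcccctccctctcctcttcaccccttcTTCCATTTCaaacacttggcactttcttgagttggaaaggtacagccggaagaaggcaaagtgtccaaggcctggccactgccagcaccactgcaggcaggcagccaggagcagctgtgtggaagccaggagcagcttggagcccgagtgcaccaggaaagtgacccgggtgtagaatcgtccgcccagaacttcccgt

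Il15ra, second start, chr2:11705462-11705761, plus strand: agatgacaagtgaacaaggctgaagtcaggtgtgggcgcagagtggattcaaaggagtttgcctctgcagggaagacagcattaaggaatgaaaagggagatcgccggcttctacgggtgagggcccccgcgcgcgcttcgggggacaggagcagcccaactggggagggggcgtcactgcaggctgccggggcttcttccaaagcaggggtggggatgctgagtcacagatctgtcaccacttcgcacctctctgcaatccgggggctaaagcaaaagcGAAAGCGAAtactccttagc

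The motifs searched on both strands were GAAANNGAA, a core of sites bound by interferon regulatory factors, TTCNNNGAA, the site of STAT factors, and the TATA box TATAAA. In the Il18 promoter the only match was TATAAA on the reverse strand, at bases 76 to 81. That is 175 bases before the start. GAAANNGAA matched once at each Il15ra start: at bases 102 to 110 on the reverse strand of the first, and at bases 281 to 289 of the second, 30 bases past the start. No motif of the search matched in the Il18bp window. Of 32841 promoters of the same length, 13.6% held TATAAA, 8.56% GAAANNGAA and 8.30% TTCNNNGAA. No match overlapped another. The GC content was 36.7% for Il18, 52.7% for Il18bp, and 54.0% and 58.7% for the Il15ra starts.

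Il18, the ligand gene, was the most abundant of the 4 in the thalamus. In negative thalamus libraries it was at 15.9, 46.3, 27.6 and 18.8 FPKM in mice 1 to 4, and in positive ones at 74.7, 128, 67.1 and 68.4 FPKM. In the spinal cord it was at 10.2, 14.0, 13.2 and 15.4 FPKM in negative and at 48.6, 59.3, 40.9 and 49.5 FPKM in positive libraries. The positive library was higher in all 4 mice of each region, by 2.43 to 4.70 times in the thalamus and 3.10 to 4.75 times in the spinal cord, and the gates did not overlap. Mouse 2 was highest among the thalamus libraries of both gates. The differences between the gates were 1.67 ± 0.29 and 1.83 ± 0.29 (SE) on the log2(FPKM + 1) scale. In bulk RNA, fewer cells that express a gene and less RNA per cell cannot be told apart.

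In order of level, Il18 was highest in positive thalamus (84.6 ± 29.4 FPKM, SD, n = 4), then positive spinal cord (49.6 ± 7.56), negative thalamus (27.1 ± 13.7) and negative spinal cord (13.2 ± 2.17). Positive spinal cord and negative thalamus libraries overlapped, at 40.9 to 59.3 FPKM and 15.9 to 46.3 FPKM. The other neighbours in this order did not overlap, although the lowest negative thalamus library, at 15.9 FPKM, lay close to the highest negative spinal cord library, at 15.4 FPKM. Its group mean lay at the 98.3 percentile of protein-coding genes in positive thalamus and at the 80.7 percentile in negative spinal cord libraries.

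**Figure D1:**
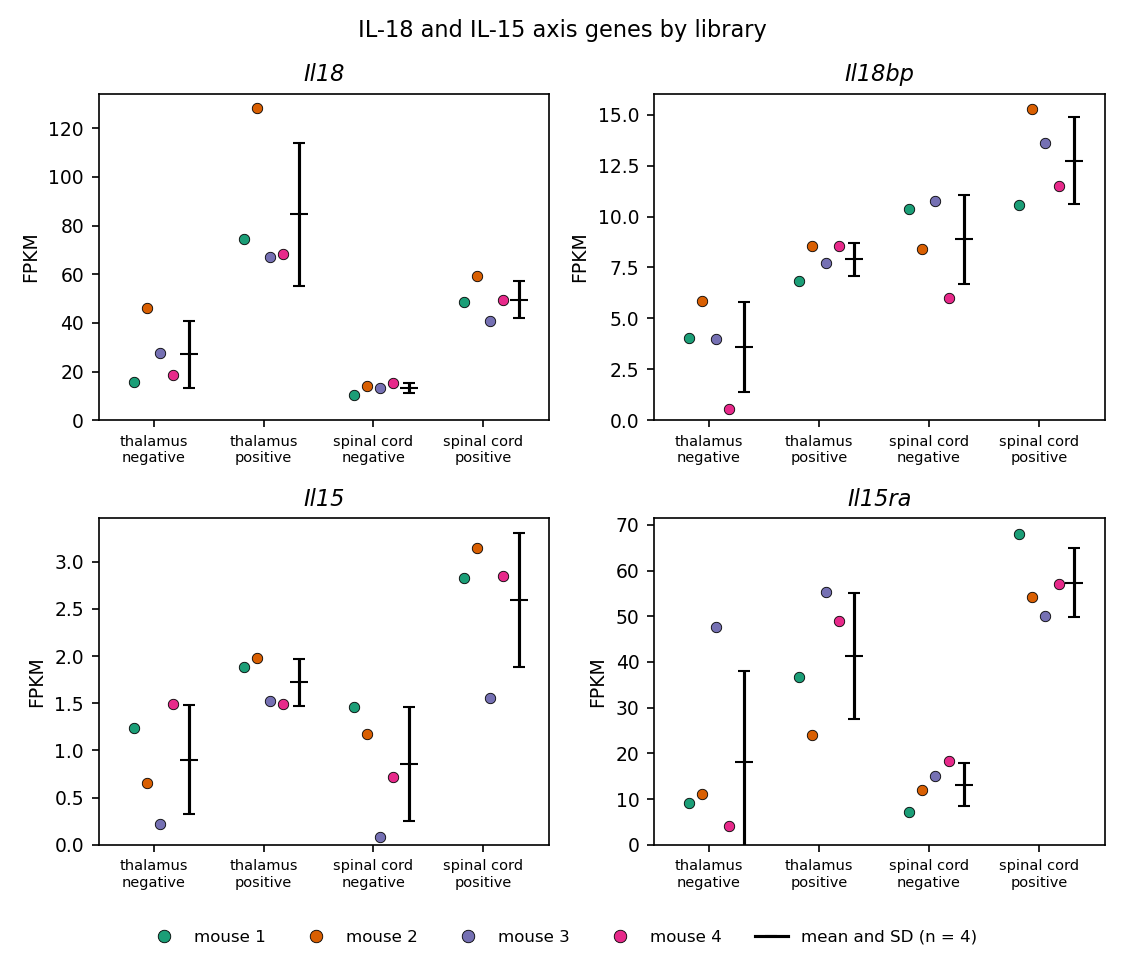
FPKM of Il18, Il18bp, Il15 and Il15ra (linear vertical axes) in each library of the 4 groups; points are libraries coloured by mouse, and black marks are the mean and SD of 4 libraries, with the lower SD bar of Il15ra in negative thalamus ending at the axis. Il18 and Il15ra lie highest in the positive groups, Il18bp in the spinal cord, and mouse 3 gives the high negative thalamus value of Il15ra.

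Between the regions, Il18 was lower in the spinal cord. The group mean in the thalamus was 2.06 times that in the spinal cord among negative libraries and 1.71 times among positive ones, and the thalamus library was higher in 4 of 4 mice within each gate. For the mean of the gates the difference, spinal cord minus thalamus, was -0.80 ± 0.21 (SE), with a limma adjusted p of 0.0174. Within the negative libraries it was -0.88 ± 0.29 (adjusted p = 0.0715) and within the positive ones -0.72 ± 0.29 (adjusted p = 0.195). With the mouse as a block the negative libraries passed (adjusted p = 0.0304), as they did without the negative thalamus library of mouse 1 (-1.09, adjusted p = 0.0268), and the positive ones passed when fitted alone (adjusted p = 0.0487). The mean of the gates missed the threshold without mouse 3 (-0.78, adjusted p = 0.11) and without mouse 4 (-0.94, adjusted p = 0.0505). The summed astrocyte markers were higher in the spinal cord, the opposite direction, but the single markers were mixed. By limma 3 of the 12 were higher and 1 was lower in negative libraries, and 6 were higher and 1 lower in positive ones. Slc1a3 was lower as Il18 was, with means of 459 FPKM in negative thalamus and 163 FPKM in negative spinal cord. Its means in positive libraries were 624 FPKM and 211 FPKM. In negative libraries 9 of 12 ependymal markers were lower in the spinal cord, as Il18 was, while 12 of 12 oligodendrocyte, 5 of 7 precursor and 5 of 10 endothelial markers were higher. In positive libraries 2 of the ependymal markers were lower and 1 of the oligodendrocyte markers was higher. The part of these cells in the result was not tested.

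Il18bp, whose product binds and neutralises interleukin 18, had the reverse regional order. In negative libraries it was at 4.02, 5.88, 3.97 and 0.57 FPKM in the thalamus and at 10.4, 8.40, 10.8 and 5.99 FPKM in the spinal cord of mice 1 to 4. In positive libraries it was at 6.85, 8.55, 7.70 and 8.54 FPKM in the thalamus and at 10.6, 15.3, 13.6 and 11.5 FPKM in the spinal cord. The spinal cord library was higher in 4 of 4 mice within each gate, by 1.43 to 2.71 times in the negative libraries of mice 1 to 3 and by 1.35 to 1.79 times in the positive libraries, and the regions did not overlap. The gap was narrow in negative libraries, where the highest thalamus value was 5.88 FPKM and the lowest spinal cord value 5.99 FPKM. Il18bp was higher by 0.94 ± 0.25 (SE) for the mean of the gates (limma adjusted p = 0.0208) and by 1.26 ± 0.35 in negative libraries (adjusted p = 0.0347). In positive libraries the difference was 0.62 ± 0.35 (adjusted p = 0.402), which passed when these groups were fitted alone (adjusted p = 0.0126). The oligodendrocyte, precursor and endothelial markers counted above moved in the same direction as Il18bp in negative libraries, and their part in its difference was not tested.

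The call in negative libraries was the less stable. It was lost without the negative spinal cord library of mouse 1, 2 or 3 (adjusted p = 0.0751, 0.062 and 0.0816) and without all libraries of mouse 1, 2 or 3 (adjusted p = 0.12, 0.059 and 0.148). It was also lost when the negative libraries were fitted alone (adjusted p = 0.296), with no filter on low values (adjusted p = 0.0568) and with a pseudocount of 0.1 FPKM (adjusted p = 0.0573). Without the same mice the mean of the gates had adjusted p = 0.0892, 0.0557 and 0.123. The negative thalamus library of mouse 4, at 0.57 FPKM, was the lowest of the 16. Positive minus negative was 1.13 ± 0.35 in the thalamus, where the gates did not overlap, and 0.68 without that library. In the spinal cord it was 0.49 ± 0.35, with overlapping gates.

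Of the 4 genes, Il18bp alone passed the regional test in negative libraries, where 9.81% of all 16340 features did (5.27% higher and 4.54% lower in the spinal cord). None of the 4 passed in positive libraries, where 6.1% of features did by limma (4.22% higher, 1.88% lower), and Il18 had an unadjusted p of 0.0265 there. For the mean of the gates 1 gene was higher and 1 lower, against 8.03% and 5.9% of features. Between the gates, Il18 and Il18bp did not overlap in the thalamus, and Il18, Il15 and Il15ra did not overlap in the spinal cord. The share of all features without overlap was not computed. Limma's test is a different measure, which 25.2% of all features passed in the thalamus (11.6% higher, 13.6% lower in positive libraries). In the spinal cord 19.6% passed it (9.04% higher, 10.5% lower). Il18 and Il15ra were chosen for their rise in positive libraries, and all 4 genes with earlier results known, so these counts are no test.

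Il18 and Il18bp together gave a ratio of ligand to binding protein that separated the regions within each gate. In the thalamus the ratio of FPKM was 3.95, 7.87, 6.95 and 32.9 in negative and 10.9, 15.01, 8.71 and 8.01 in positive libraries. In the spinal cord it was 0.987, 1.66, 1.23 and 2.57 in negative and 4.60, 3.88, 3.00 and 4.30 in positive libraries. All thalamus ratios of a gate lay above all spinal cord ratios of the same gate. The highest, 32.9, comes from the library with the lowest Il18bp.

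**Figure D2:**
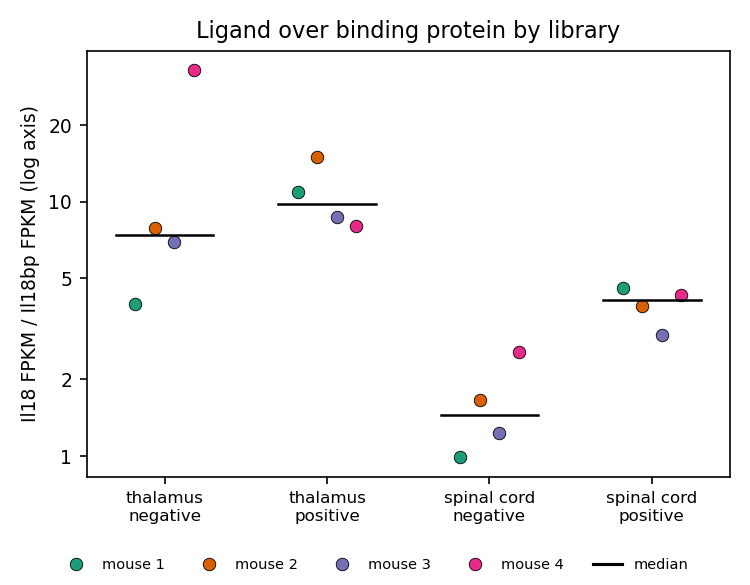
Ratio of Il18 to Il18bp FPKM (log vertical axis) in each library of the 4 groups; points are libraries coloured by mouse and lines are medians of 4. The medians are 7.41 and 9.81 in negative and positive thalamus and 1.44 and 4.09 in negative and positive spinal cord.

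Il15, the second ligand, was the least abundant of the 4, at the 42.1 to 57.3 percentile of protein-coding genes. It was at 1.24, 0.659, 0.222 and 1.49 FPKM in negative and 1.89, 1.98, 1.53 and 1.49 FPKM in positive thalamus libraries of mice 1 to 4. Spinal cord libraries held 1.46, 1.17, 0.0826 and 0.715 FPKM in negative and 2.83, 3.15, 1.55 and 2.85 FPKM in positive libraries. The gates did not overlap in the spinal cord, and in the thalamus they met at 1.49 FPKM in mouse 4. Mouse 3 gave the lowest negative library of each region. Positive minus negative was 0.56 ± 0.28 (SE) in thalamus and 0.99 ± 0.28 in spinal cord on the log2(FPKM + 1) scale, which understates changes at such low levels. With a pseudocount of 0.1 FPKM the differences were 1.09 and 1.82, and without the negative thalamus library of mouse 3 the thalamus difference was 0.37.

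The regions did not differ in Il15 beyond the spread of the libraries, at -0.05 ± 0.28 (SE) in negative libraries, 0.38 ± 0.28 in positive libraries and 0.17 ± 0.20 for the mean of the gates (limma adjusted p = 0.956, 0.549 and 0.644). In positive libraries the spinal cord was higher in 4 of 4 mice, by 1.02 to 1.91 times, and the regions overlapped. The order of the group means was positive spinal cord (2.59 ± 0.709 FPKM, SD, n = 4), positive thalamus (1.72 ± 0.25), negative thalamus (0.904 ± 0.573) and negative spinal cord (0.858 ± 0.602), and every neighbouring pair overlapped.

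Il15ra, the receptor chain that presents interleukin 15, was far more abundant than its ligand. It was at 9.06, 11.2, 47.7 and 4.08 FPKM in negative and 36.8, 24.0, 55.2 and 49.0 FPKM in positive thalamus libraries of mice 1 to 4. Spinal cord libraries held 7.18, 12.0, 15.1 and 18.4 FPKM in negative and 68.0, 54.3, 50.2 and 57.1 FPKM in positive libraries. The positive library was higher in 4 of 4 mice of each region. The gates did not overlap in the spinal cord, whereas in the thalamus the negative library of mouse 3 lay above 2 of the 4 positive libraries. Positive minus negative was 1.61 ± 0.51 (SE) in thalamus and 2.11 ± 0.51 in spinal cord, and the thalamus value was 2.24 without that library and 1.05 without mouse 4, whose negative library was the lowest.

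Il15ra did not pass the regional test. Spinal cord minus thalamus was 0.03 ± 0.51 (SE) in negative libraries, 0.52 ± 0.51 in positive libraries and 0.28 ± 0.36 for the mean of the gates (limma adjusted p = 0.989, 0.701 and 0.685). In order of level it was highest in positive spinal cord (57.4 ± 7.63 FPKM, SD, n = 4), then positive thalamus (41.3 ± 13.8), negative thalamus (18.01 ± 20.003) and negative spinal cord (13.2 ± 4.76), and each neighbouring pair overlapped. The ratio of Il15ra to Il15 ran from 12.1 to 36.2 in positive libraries of both regions. In negative libraries it ran from 2.73 to 214, and its 2 highest values, 214 in thalamus and 183 in spinal cord, were those of mouse 3, in which Il15 was lowest.

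The authors' deposited table of positive against negative libraries lists Il15ra and Il18 side by side. Il18bp and Il15 are not among its 444 rows. It makes the comparison by which the genes were chosen, so its p-values are no further test of them. In the authors' deposited table Il15ra has a log2 fold change of 1.70 (SE 0.19) with an adjusted p of 2.6e-17, rank 8 by fold change of the 223 genes listed as higher. In the same deposited table the authors give Il18 a log2 fold change of 1.70 (SE 0.296) with an adjusted p of 1.91e-07, rank 9. The difference of the gate differences between the regions was 0.17 ± 0.41 (SE) for Il18, -0.64 ± 0.50 for Il18bp, 0.43 ± 0.39 for Il15 and 0.49 ± 0.73 for Il15ra in the fit across all libraries, each described without a test. Leaving out a library or a mouse moved these values to between -0.12 and 0.38 for Il18, -0.96 and -0.18 for Il18bp, 0.18 and 0.62 for Il15, and -0.14 and 1.23 for Il15ra. The sign changed for Il18 without the negative thalamus library of mouse 2, and for Il15ra without that of mouse 3.

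Receptor genes for the ligands were low or listed at 0. Il18r1, the ligand-binding chain of the interleukin 18 receptor, was at 0.227 to 1.65 FPKM over the 16 libraries, and its partner chain Il18rap at 0.0505 to 0.446 FPKM. Sigirr, an inhibitory receptor of the family, was listed at 0 in 14 libraries. Il2rb, the beta chain shared by interleukins 2 and 15, was listed at 0 in 14 libraries and at 1.09 FPKM in the negative spinal cord library of mouse 3. Il2rg, the common gamma chain, was at 7.67, 0.387, 0.0923 and 2.09 FPKM in negative spinal cord libraries of mice 1 to 4 and at most at 0.247 FPKM elsewhere. None of these chains reached 1 FPKM in 4 libraries, so none was tested. The interleukin 2 receptor alpha gene Il2ra, at 0.201 to 0.935 FPKM, was not tested either. Where receptor chains are listed at 0 in all 4 libraries of a group, this can be a failed estimate and sets no limit on expression.

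The wider pathway was described with 8 lists of 105 genes, of which 104 were in the table and 56 were tested. Between the regions, 3 of the 56 passed in negative libraries, 4 in positive libraries and 6 for the mean of the gates, which is 5.36%, 7.14% and 10.7% of them against 9.81%, 6.1% and 13.9% of all features. The median differences of the 56 were 0.06, -0.04 and 0.00 against 0.00 for all features in each. Between the gates, 8 of 56 passed in the thalamus (5 higher, 3 lower) and 8 in the spinal cord (5 higher, 3 lower). These counts stand against the 25.2% and 19.6% of all features given above, and the median differences were 0.15 and 0.11 against 0.06 and 0.09 for all features. The lists were chosen with earlier results of these data known. The counts also include Il21r and Il36g, whose calls are tied to the filter on low values, as given below.

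Casp1, the protease that cuts the interleukin 18 precursor, was higher in the spinal cord in both gates. It was listed at 0 in mouse 1 and was at 0.363, 0.386 and 0.0559 FPKM in mice 2 to 4 in negative thalamus, and at 8.47, 1.17, 1.70 and 3.00 FPKM in negative spinal cord libraries. In positive libraries it was at 1.13, 0.364, 1.36 and 0.381 FPKM in the thalamus and at 10.6, 7.27, 6.54 and 7.66 FPKM in the spinal cord. The spinal cord library was higher in all 4 mice within each gate and the regions overlapped in neither. Casp1 was higher by 2.02 ± 0.26 (SE) for the mean of the gates (limma adjusted p = 0.000114), by 1.70 ± 0.37 in negative libraries (adjusted p = 0.0085) and by 2.34 ± 0.37 in positive libraries (adjusted p = 0.00124). The mean of the gates and the positive libraries passed under all alternatives run; the negative libraries missed the threshold when fitted alone (adjusted p = 0.123) and without mouse 4 (1.63, adjusted p = 0.0839). Of the 10 microglia markers tested by limma, 0 passed between the regions in negative and 0 in positive libraries, where 9.81% and 6.1% of all features did, and 1 and 0 had an unadjusted p under 0.05. For the mean of the gates 1 of the 10 was lower in the spinal cord and 0 were higher, against 5.9% and 8.03% of all features. The median differences of the 10 were -0.12 in negative libraries, -0.35 in positive libraries and -0.17 for the mean of the gates. Single markers went both ways in negative libraries. Csf1r had means of 3.49 FPKM (thalamus) and 1.45 FPKM (spinal cord), and Itgam 2.85 FPKM and 4.07 FPKM. The direction of the microglia marker P2ry12 depended on the gate. Among positive libraries it was opposite to Casp1 without overlap, with ranges of 2.23 to 3.898 FPKM (thalamus) and 1.53 to 2.11 FPKM (spinal cord). Among negative libraries its mean had the same regional order as that of Casp1, 3.65 FPKM (thalamus) and 5.31 FPKM (spinal cord), with overlapping ranges. The border macrophage marker Mrc1 had the regional order of Casp1. It was at 0.0115 to 0.133 FPKM in positive thalamus and 0.366 to 0.805 FPKM in positive spinal cord libraries, with means of 0.0487 FPKM and 0.294 FPKM in negative ones. Cd163 (means of 2.68 FPKM and 1.32 FPKM) and Ms4a7 (0.389 FPKM and 0.26 FPKM) were lower in positive spinal cord than in positive thalamus libraries. Oligodendrocyte, precursor and endothelial markers were higher in negative spinal cord libraries, as counted above. The part of other cells in the Casp1 values was not tested.

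Casp1 also rose in positive spinal cord libraries, by 1.204 ± 0.371 (SE, limma adjusted p = 0.0339), although 10 of the 20 fits that left out a library or a mouse lost this call, with adjusted p up to 0.161. It was also lost with a pseudocount of 0.1 FPKM, with no filter and when the spinal cord was fitted alone (adjusted p = 0.117, 0.0635 and 0.0915). Gsdme, a pore-forming gasdermin gene, rose in positive thalamus libraries from 26.6, 18.2, 20.3 and 25.7 FPKM to 40.5, 39.1, 43.9 and 47.2 FPKM in mice 1 to 4. The gates did not overlap, and the difference of 0.89 ± 0.18 (adjusted p = 0.00221) passed under all alternatives run. In positive libraries Gsdme was lower in the spinal cord by -0.77 ± 0.18 (adjusted p = 0.0161), where it was at 20.6 to 30.2 FPKM. The regional call for Gsdme in positive libraries was lost in 7 of 20 leave-out fits, with adjusted p up to 0.175, and its mean of the gates (-0.58 ± 0.13, adjusted p = 0.00643) was lost without mouse 3 or mouse 4 (adjusted p = 0.0738 and 0.0532). Of 18 genes in this maturation list 8 were tested, and the other 10 did not reach the filter.

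**Figure D3:**
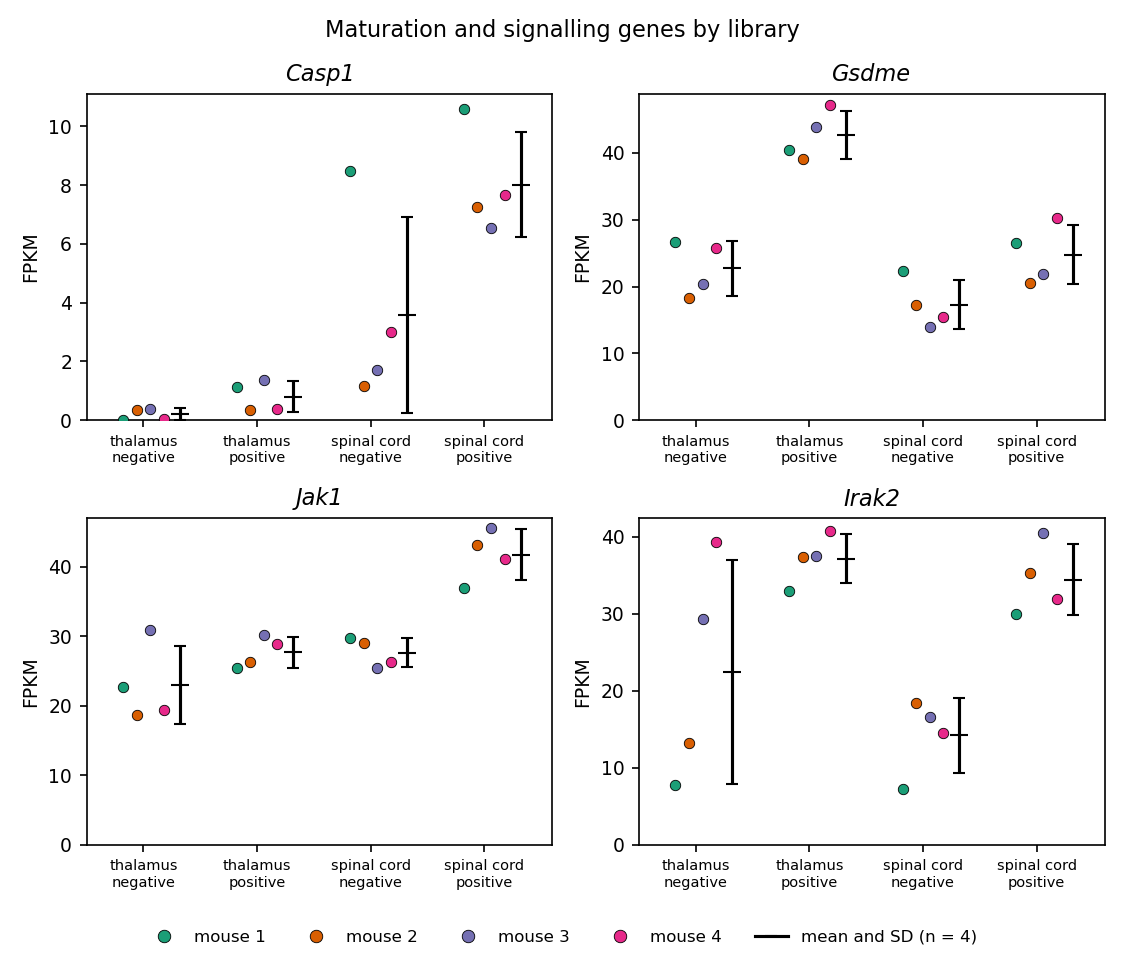
FPKM of Casp1, Gsdme, Jak1 and Irak2 (linear vertical axes) in each library of the 4 groups; points are libraries coloured by mouse and black marks are the mean and SD of 4 libraries. Casp1 lies highest in the spinal cord, Gsdme in positive thalamus, and Irak2 in negative libraries spreads from 7.29 to 39.3 FPKM.

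Among 16 tested genes of interleukin 18 receptor signalling, 0 passed between the regions by limma in negative libraries, positive libraries or the mean of the gates, where 9.81%, 6.1% and 13.9% of all features did, and 0 had an unadjusted p under 0.05. With 16 genes and such shares, little can be read from this count. Irak2, a receptor-associated kinase, rose in positive spinal cord libraries from 7.29, 18.4, 16.6 and 14.6 FPKM to 30.002, 35.3, 40.5 and 31.9 FPKM in mice 1 to 4. The difference was 1.28 ± 0.39 (SE, adjusted p = 0.0318), and 9 of 20 leave-out fits lost it, with adjusted p up to 0.117, as did the fit with no filter (adjusted p = 0.0549). Tab2, an adaptor of the TAK1 kinase, fell by 0.89 ± 0.20 in positive spinal cord libraries (adjusted p = 0.00594) and by 0.66 ± 0.20 in positive thalamus libraries (adjusted p = 0.027). The spinal cord call of Tab2 was lost without mouse 2 (-0.70, adjusted p = 0.0759), and the thalamus call in 7 of 20 leave-out fits, with adjusted p up to 0.119, and when the thalamus was fitted alone (adjusted p = 0.0798).

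Of 12 tested genes of interleukin 15 receptor signalling, Jak1, the kinase bound to the beta chain, was at 25.4, 26.3, 30.2 and 28.8 FPKM in positive thalamus and at 36.96, 43.1, 45.6 and 41.1 FPKM in positive spinal cord libraries of mice 1 to 4. It was higher in the spinal cord by 0.57 ± 0.15 in positive libraries (SE, limma adjusted p = 0.0386) and by 0.43 ± 0.11 for the mean of the gates (adjusted p = 0.0159). With the mouse as a block the call in positive libraries was lost (adjusted p = 0.0521), as it was in 12 of 20 leave-out fits, with adjusted p up to 0.205. The mean of the gates was lost without mouse 1, 2 or 4 (adjusted p = 0.0749, 0.142 and 0.106). Jak1 also rose in positive spinal cord libraries by 0.58 ± 0.15 (adjusted p = 0.0162). That call was lost without the positive spinal cord library of mouse 3 and without mouse 2, 3 or 4 (adjusted p = 0.0546, 0.0657, 0.0723 and 0.102).

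Stat5a and Stat5b encode the transcription factors at the end of this signalling. Stat5a was higher in the spinal cord for the mean of the gates by 0.90 ± 0.27 (SE, limma adjusted p = 0.0375), which was lost with the mouse as a block (adjusted p = 0.0593), with a pseudocount of 0.1 FPKM (adjusted p = 0.0656), with no filter (adjusted p = 0.0672) and in 13 of 20 leave-out fits. Stat5b was lower in negative spinal cord than in negative thalamus libraries by -0.70 ± 0.19 (adjusted p = 0.0341) and rose from negative to positive spinal cord libraries by 0.63 ± 0.19 (adjusted p = 0.0337). These comparisons share the negative spinal cord libraries, in which Stat5b was at 2.40 ± 0.426 FPKM (SD, n = 4), and each lost its call in 8 of 20 leave-out fits, with adjusted p up to 0.241 and 0.229, and when only the groups compared were fitted (adjusted p = 0.2598 and 0.0551). Pik3r1, a regulatory subunit of the PI3 kinase, fell in positive libraries of the spinal cord by 0.78 ± 0.21 (adjusted p = 0.017) and of the thalamus by 0.63 ± 0.21 (adjusted p = 0.0398). Leave-out fits lost the Pik3r1 calls in 5 and 12 of 20 cases, with adjusted p up to 0.0694 and 0.175. The thalamus call was also lost with no filter and when the thalamus was fitted alone (adjusted p = 0.0519 and 0.085).

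Of the 14 tested regulators from the interferon and NF-kB list, Irf3, an interferon regulatory factor, rose in positive spinal cord libraries from 11.2, 3.77, 14.97 and 9.17 FPKM to 20.8, 29.1, 21.8 and 15.7 FPKM. The difference of 1.18 ± 0.30 (SE, limma adjusted p = 0.0124) was 0.69 without mouse 2 (adjusted p = 0.0567), and the call was also lost when the spinal cord was fitted alone (adjusted p = 0.0578). Rel, an NF-kB subunit, rose in positive thalamus libraries from 2.74, 1.55, 3.25 and 2.46 FPKM to 6.75, 6.17, 5.12 and 6.66 FPKM, by 1.05 ± 0.26 (adjusted p = 0.0098). It lost this call without mouse 2 or mouse 4 (adjusted p = 0.0759 and 0.0851). In negative libraries Rel was higher in the spinal cord by 1.36 ± 0.26 (adjusted p = 0.00377), which was lost when the negative libraries were fitted alone (adjusted p = 0.1298) and without mouse 4 (adjusted p = 0.0535); there it was at 15.1, 6.53, 4.69 and 7.94 FPKM.

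The gate difference of Rel itself differed between the regions, by -1.53 ± 0.37 (SE, limma adjusted p = 0.0445), the only call among 56 pathway genes, where 2.56% of all features passed. With the mouse as a block the adjusted p was 0.0648 and with no filter 0.0677, and 16 of 20 leave-out fits lost the call, with adjusted p up to 0.282. For the mean of the gates Rel (0.60 ± 0.19, adjusted p = 0.0454) and the interferon receptor gene Ifnar2 (1.28 ± 0.39, adjusted p = 0.0409) were higher in the spinal cord. With the mouse as a block both were lost (adjusted p = 0.0569 and 0.0519), as they were with no filter (adjusted p = 0.06997 and 0.0736), and leave-out fits lost them in 16 and 12 of 20 cases. Ifnar2 was also lost with a pseudocount of 0.1 FPKM (adjusted p = 0.0507).

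**Figure D4:**
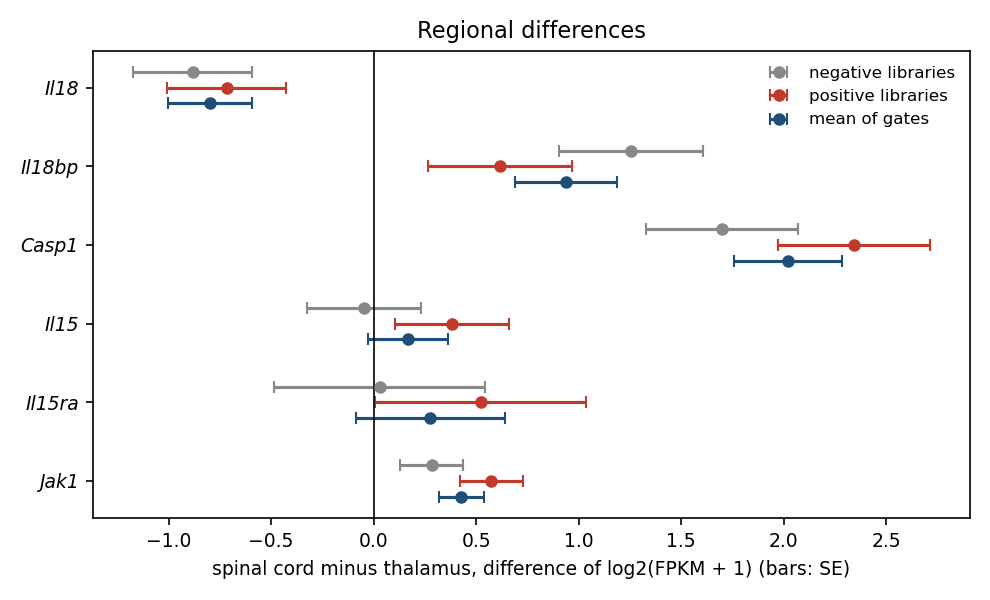
Spinal cord minus thalamus differences of log2(FPKM + 1) (horizontal axis) for 6 genes in negative libraries, positive libraries and the mean of the gates; points are the fitted differences and bars their SE. Il18 lies below 0 in all 3 comparisons, Il18bp and Casp1 above 0, and the bars of Il15 and Il15ra reach 0 in negative libraries and the mean of the gates.

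Among interleukin 1 family genes other than Il18, 4 were tested. Il1rap, the accessory receptor chain shared by interleukin 1 and interleukin 33, fell in positive spinal cord libraries from 8.28, 6.89, 5.31 and 6.30 FPKM to 1.18, 0.873, 0.858 and 0.792 FPKM. The difference of -1.99 ± 0.32 (SE, limma adjusted p = 0.000454) passed under all alternatives run. Markers of several other cells fell in the same libraries. By limma these were 12 of 12 oligodendrocyte, 12 of 12 ependymal, 5 of 7 precursor and 7 of 10 endothelial markers, against 10.5% of all features. The part of these cells in the Il1rap values was not tested. Il1rapl1, a related synaptic receptor gene, rose in positive thalamus libraries by 1.22 ± 0.31 (adjusted p = 0.0104), with the call lost without mouse 2 or mouse 4 (adjusted p = 0.0818 and 0.0509). Il21r and Il36g, under 2 FPKM in every group and named after their values were seen, were also higher in positive thalamus libraries (0.71 and 0.60). Il21r was lower in positive spinal cord than in positive thalamus libraries (-0.67). Both averaged over 1 FPKM only in positive thalamus, at 1.33 FPKM and 1.16 FPKM. The filter of 1 FPKM in 4 libraries thus favoured them for their level in that group, so these calls are no independent result.

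The genes most like each member were ranked by the Pearson correlation of log2(FPKM + 1) over the 16 libraries among 9939 protein-coding genes; the libraries share 4 mice and 4 groups, so the values describe a shared pattern of group levels. For Il18 they were Trim9, a ubiquitin ligase gene (r = 0.94), Nwd1 (0.94), Mical2, an actin oxidase gene (0.93), and Fstl1, a secreted glycoprotein gene (0.93). After the group means were subtracted these were 0.72, 0.70, 0.63 and 0.57. Trim9 had the same order as Il18, from 276 ± 26.6 FPKM (SD, n = 4) in positive thalamus to 124 ± 15.5 FPKM in negative spinal cord libraries.

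For Il18bp the most similar were Polrmt, the mitochondrial RNA polymerase gene (r = 0.88), Med17, a Mediator subunit gene (0.88), Traf7 (0.87) and Gtpbp6 (0.86). Il15 had the adhesion genes Pcdh18 (0.90) and Chl1 (0.87), the kinase gene Camk2d (0.88) and the GABA receptor subunit gene Gabrg1 (0.87). Il15ra had Tatdn3 (0.89), the protease gene Tmprss7 (0.89), Zfp691 (0.88) and Napg (0.87). No member was among the 4 nearest genes of another, and the members' own correlations ran from 0.28 for Il18 with Il18bp to 0.67 for Il18 with Il15ra. For Il15 with Il15ra the correlation was 0.37 over the 16 libraries and -0.67 after subtracting the group means, with mouse 3 low in Il15 and high in Il15ra in negative thalamus.

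Neighbouring genes were examined because reads can be shared where genes overlap. In GENCODE vM21 (GRCm38) Il18 spans chr9:50554827-50581840 on the plus strand with 4 transcripts. Tex12, a meiotic chromosome gene on the other strand, lies inside it without sharing exons. Bco2, a carotenoid-cleaving enzyme gene also on the other strand, overlaps its first 355 bases and shares no exons with it either. Tex12 rose between the thalamus gates, where it was at 7.81, 4.35, 1.18 and 0.643 FPKM in negative and 10.5, 13.3, 12.7 and 11.2 FPKM in positive thalamus libraries of mice 1 to 4, a difference of 1.84 ± 0.39 (SE, limma adjusted p = 0.00368). In the spinal cord its difference was 1.08 ± 0.39 (adjusted p = 0.068), and Bco2 rose there by 0.84 ± 0.24 (adjusted p = 0.0234) at no more than 1.25 FPKM in any spinal cord library. Between the regions Tex12 was at 10.5 to 13.3 FPKM in positive thalamus and at 4.25 to 6.05 FPKM in positive spinal cord libraries, lower in the spinal cord without overlap as Il18 was, although the difference did not pass (-1.03 ± 0.39, adjusted p = 0.165). In negative libraries its regional difference was -0.27 ± 0.39 (adjusted p = 0.742) and for the mean of the gates -0.65 ± 0.28 (adjusted p = 0.147), and Bco2 passed no regional test. The sources used here do not give the strand setting of the counting, so reads from these genes and from Il18 cannot be told apart where they overlap. The flanking genes Pts and Sdhd did not pass the gate tests, and Pts was higher in the spinal cord for the mean of the gates (0.46 ± 0.13, adjusted p = 0.0252), opposite to Il18.

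Il18bp lies at chr7:102014885-102018690 on the minus strand with 4 transcripts, and its 3′ end shares 80 of 3026 exonic bases with Numa1, a mitotic spindle gene on the other strand. Numa1 was at 6.50, 7.67, 6.22 and 8.13 FPKM on average in negative and positive thalamus and negative and positive spinal cord, and passed no test. Rnf121, 446 bases away on the other side, passed none, and Lrrc51 was lower in negative spinal cord than in negative thalamus libraries (-2.06 ± 0.43, limma adjusted p = 0.00673), opposite in direction to Il18bp.

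Il15 lies at chr8:82331632-82403222 on the minus strand with 10 transcripts, over 200 kb from Inpp4b and Zfp330, which passed no test. Il15ra lies at chr2:11705290-11734317 on the plus strand with 18 transcripts, between Il2ra and Fbh1, a DNA helicase gene 8255 bases away on the other strand. Fbh1 rose in positive libraries of the thalamus by 0.84 ± 0.23 (SE, limma adjusted p = 0.0149) and of the spinal cord by 1.01 ± 0.23 (adjusted p = 0.00583). Its level was 20.5, 22.8, 18.4 and 13.02 FPKM in negative and 32.99, 46.2, 35.5 and 23.3 FPKM in positive thalamus libraries of mice 1 to 4. Unlike Il15ra it passed the regional test for the mean of the gates, at 0.79 ± 0.16 (adjusted p = 0.00434); whether the regional differences of the 2 genes differ was not tested.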

How the data were processed

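Per the labels' protocols, RNA of sorted astrocytes came from a Qiagen micro kit and NuGEN reagents made the libraries. Per the submitters' processing notes the tools were Cufflinks, Cuffnorm, HTSeq 0.6.1p1, Bowtie2 2.2.3, TopHat2 2.0.11, DESeq2 and FastQC, with GRCm38 as the build and no roles given. The authors deposited FPKM values for 39171 features in 16 libraries, which may already be normalized between libraries, since the median-of-ratios factors ran from 0.986 to 1.07. Their deposited comparison table holds log2 fold changes with standard errors, a test score, p-values and group means.

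From the deposited FPKM, log2(FPKM + 1) values were fitted with limma 3.58.1 (R 4.3.3), using a trended prior and 1 coefficient for each of the 4 groups. The fit took the 16340 features that reached 1 FPKM in 4 or more libraries. Adjusted p-values are Benjamini-Hochberg values over these features, with a threshold of 0.05. The script was tested on simulated data. The 4 genes, the 8 pathway lists and the 9 marker lists were chosen with earlier results of these data known. Up to 4 genes per list, comparison and direction that passed were named if the higher group averaged 2 FPKM or more, with the receptor genes, the 4 most similar genes and the neighbours of each member. Il36rn and the precursor marker Lhfpl3 were not matched. Correlations used genes with a mean of at least 2 FPKM.

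A mouse number marks 1 animal per the labels, so it pairs the libraries. After subtracting group means, the 24 pairs of libraries from 1 mouse correlated at 0.036 on average and the 72 other pairs at -0.012. Replicates are separate mice. No libraries were identical (0 pairs). Alternatives were a pseudocount of 0.1 FPKM, no filter, at least 5 FPKM, median-of-ratios rescaling, the mouse as a block, only the groups compared, and leaving out each library or mouse. One called pathway gene is not reported here by name, though the counts of pathway genes include it.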

Additional observations from a re-analysis of the deposited data

Results flagged for a closer look

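These values stood apart from the other 3 of their group by Dixon's test, which chance alone does for about 1 in 20 groups, or differed between the regions by a test. Il18 was at 128 FPKM in the positive thalamus library of mouse 2, above the other positive thalamus libraries. Il15ra was at 47.7 FPKM in the negative thalamus library of mouse 3. Il33 was at 36.5 FPKM in the negative spinal cord library of mouse 1, which also had the highest summed FPKM of its group.

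Genes listed at 0 in the other libraries of a group were flagged by a single value. Sigirr was at 0.135 FPKM in positive thalamus and at 0.14 FPKM in negative spinal cord. Il2rb was at 1.09 FPKM in negative and at 0.0176 FPKM in positive spinal cord. Il2rg was at 0.247 FPKM in negative and at 0.0358 FPKM in positive thalamus. The gate difference of Rel differed between the regions by -1.53 on the log2 scale (limma adjusted p = 0.0445).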

How the results depend on the processing

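Of the members' regional results, the direction held under every setting for Il18 and Il18bp. Leaving out a library or a mouse gave Il18 -0.94 to -0.61 for the mean of the gates, -1.09 to -0.59 in negative and -0.81 to -0.50 in positive libraries. Il18bp ran from 0.71 to 1.06, 0.80 to 1.52 and 0.53 to 0.70 in the same order. Il15 (-0.24 to 0.19) and Il15ra (-0.60 to 0.66) changed sign in negative libraries, where neither passed. With the mouse as a block (the replicate pairing) Il18 in negative libraries was -0.88 (adjusted p = 0.0304). Among the members and pathway genes named, the block also ended 5 pathway gene calls, given in the report, and it changed no other call of theirs. Il18bp in negative libraries lost its call with a pseudocount of 0.1 (1.61, adjusted p = 0.0573), without a filter (1.26, adjusted p = 0.0568) and with only the groups compared (1.26, adjusted p = 0.296). With only the groups compared, positive libraries passed for Il18 (-0.72, adjusted p = 0.0487) and Il18bp (0.62, adjusted p = 0.0126). A pseudocount of 0.1 moved the gate differences of Il15 to 1.09 and 1.82. Il15 has no value at the filter of 5 FPKM, and fits of only the groups compared give none for the mean of the gates.

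Counts of pathway genes moved with the setting. With only the groups compared they were 0 higher and 0 lower in negative and 7 higher and 5 lower in positive libraries between the regions, 0 lower between the gates of the thalamus and 3 higher between those of the spinal cord. The filter of 5 FPKM gave 0 lower in negative and 1 lower in positive libraries between the regions and 2 higher between the thalamus gates. A pseudocount of 0.1 gave 1 lower in positive libraries and 3 higher for the mean of the gates, and no filter gave 2 lower for that mean. The mouse block gave 1 higher and 1 lower in positive libraries, 2 higher for the mean of the gates and 0 for the difference between the regions. Leave-out ranges between the regions were 0 to 3 higher and 0 to 2 lower in negative libraries, 1 to 3 and 0 to 2 in positive libraries, and 1 to 5 and 0 to 2 for the mean of the gates. Between the gates they were 1 to 7 higher and 0 to 4 lower in the thalamus, 0 to 7 and 2 to 5 in the spinal cord, and 0 to 1 and 0 to 2 for the difference between the regions. Depth is unknown, so what it limits cannot be given.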
